A study of Mus musculus with 24 samples.

Results

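The transcription factors that drive Schwann cell myelination were followed in the spinal roots of mice from birth to young adulthood. The list held 10 genes, namely *Egr2*, *Sox10*, *Pou3f1*, *Pou3f2*, *Nab1*, *Nab2*, *Nfatc4*, *Yy1*, *Zeb2* and *Tead1*. They were chosen by name and not by a rule on their values, though earlier results of these data were known. A gene probe carried the name of 9 of them, among 24813 gene symbols on the array, whereas *Nab1* had none and was not analysed here. The 9 genes had 21 of the 56605 gene probes on the array, and all 21 passed the filter on dim signals. Each gene is given through the probe that was brightest on average (mean log2 signal, 24 arrays), and its other probes serve as a check. All mice were C57BL/6, unmodified and untreated, and were taken at birth (P0) or at 1 W, 3 W or 5 W of age. At each age the efferent nerve fibres (EN, the ventral root, with motor axons) and the afferent nerve fibres (AN, the dorsal root, with the central axons of sensory neurons) of segments L4–L6 were collected, which gave 8 groups of 3 arrays. Per the study's methods, 9 animals were used at each age, their fibres were pooled by group, and the arrays of a group came from 3 independent experiments. A root holds Schwann cells, axons, fibroblasts and blood vessels together, and in such bulk samples fewer cells of a type and less RNA per cell cannot be told apart.

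A Schwann cell that has paired with an axon needs a cascade of transcription factors before it wraps myelin. Axonal neuregulin and the receptor Adgrg6 act upstream of the POU domain factors Pou3f1 and Pou3f2, which together with the lineage factor Sox10 switch on *Egr2*. The zinc finger protein Egr2 then activates myelin genes with the corepressors Nab1 and Nab2 as partners. Yy1 is a further activator of *Egr2*, Nfatc4 works with Sox10 once calcineurin has dephosphorylated it, Tead1 is the DNA-binding partner of Yap1 and Wwtr1, and Zeb2 recruits the chromatin remodelling complex NuRD to shut down genes that hold the cell immature. The POU factors are known to be transient and to decline as myelination is completed.

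Promoter sequences were read for 7 of the 10 genes from the RefSeq table of GRCm38.p6 (*Egr2*, *Nab1*, *Nab2*, *Nfatc4*, *Pou3f2*, *Yy1* and *Zeb2*). Among the 250 bases before each listed start, ATGCAAAT, the octamer that POU factors bind, was searched on both strands. It stood before 3 of the 5 *Egr2* starts, at the same genomic place, and before the start of *Prx*, which encodes the myelin protein periaxin. It was in 1.6% of all 32851 promoters of the table. The same search for ACAAAG, a core read by SOX proteins, found it in 16.5% of promoters. A gene was counted if any listed start had the motif, whereas the shares count each promoter alone. Counts of genes and shares of promoters are thus not directly comparable, here and for the motifs below. ACAAAG was found for 3 of 11 myelin target genes (*Mag*, *Cnp* and *Gjb1*) and 1 of the 7 genes (1 start of *Zeb2*). The stretches show matches with the bases around them, with the motif in capitals and 5′ to 3′ on the strand of the gene.
Egr2, octamer, chr10:67537731-67537760 (+): gccaagcccgtATGCAAATtggccatgtga
Prx, octamer, chr7:27499080-27499109 (+): atgggggtggtATGCAAATtcttgaactaa
Mag, SOX, chr7:30914972-30915001 (-): tgacaagggcccCTTTGTgcccccctcccc
Cnp, SOX, chr11:100574760-100574789 (+): aacttttaaggaACAAAGaggtggcgtggc
Gjb1, SOX, chrX:101376188-101376217 (+): gtgcctgaatacACAAAGcaatcacttttg
Zeb2, SOX, chr2:45110322-45110351 (-): aacagtaacaacACAAAGcgcctcggggcc
A match describes letters only and is no measured site. *Mag* carries the motif on the opposite strand, so that it reads CTTTGT. The letters GCGTGGGCG or GCGGGGGCG, which EGR proteins bind, were in 3.06% of promoters, in none of the 11 myelin target genes with a promoter in the table, and of the 7 genes in *Nab1*. GGAATG, searched as a TEAD site, was in 12.6% of promoters, in 6 of the 11 and in 3 of the 7 (*Egr2*, *Nab1* and *Zeb2*). CAGGTG, searched as a ZEB site, was in 17.2% of promoters, in 6 of the 11 and in none of the 7.

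Signals are log2 values that the authors had quantile normalized. A difference was called where limma, fitted to all 8 groups, gave a Benjamini-Hochberg adjusted p below 0.05 over the 36409 tested probes, and "rose", "fell", "higher" and "lower" are used of called differences. All adjusted p values below are from that fit unless a fit with pairs is named. The AN and EN arrays of the same age and number shared a slide and varied together (r of their deviations 0.107 to 0.646, above 0.1 in 12 of 12 pairs). A fit with these 12 pairs as a block is therefore given beside the AN against EN results whose call or count it changes. At 3 W all arrays lay on slide 4, and P0 replicates 2 and 3 of both roots lay on slide 3. In these pairs only the number marks the partners. The 3 W pairs varied together least (r = 0.184, 0.107 and 0.214). Arrays of unlike number were not compared, so results with pairs that use P0 or 3 W arrays rest on a pairing that was not tested. The 3 W arrays lay on 1 slide that held no P0 array, and so the age of 3 W and that slide cannot be told apart except through the 5 W arrays on it.

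Schwann cell markers were present throughout. All 8 genes of the list were well above background on every array, and their summed log2 signal was 17.88 to 18.18 at P0 and 18.93 to 19.14 at 5 W. The genes of the list did not move one way, since at 5 W 3 rose and 4 fell in EN (median −0.25) and 4 rose and 3 fell in AN (median 0.22). Between the roots 3, 5 and 5 of the 8 were higher in AN at 1 W, 3 W and 5 W, and 1 was lower at each. Their AN minus EN medians were 0.23, 0.66 and 0.86, and 2.74%, 3.07% and 3.52% of all probes were higher. Their sums at 5 W were 18.99–19.14 in AN and 18.93–19.03 in EN. Markers of other cells moved with age or root. All 6 cycling cell markers fell from P0 at every age in both roots, and their sum went from 15.19–16.14 at P0 to 11.29–11.88 at 5 W. Of 7 macrophage markers 6 rose in EN and 5 in AN at 5 W, with a sum of 13.70–14.08 at P0 and 15.04–15.91 at 5 W. The sum of 8 sensory neuron markers was 14.42–15.14 in EN and 14.51–16.19 in AN at P0, and in EN it was 10.21–11.76 from 1 W on. In AN they were 15.75–16.04 at 1 W, with a spread of 12.18–17.39 at 3 W and 10.37–14.33 at 5 W. AN replicate 3 at 3 W stood highest with 17.39. Skeletal muscle markers were 14.56–16.88 at P0 and 10.69–13.06 at 1 W, and in AN 4 of 5 rose again from 1 W to 3 W, with sums of 13.20–16.52 at 3 W and 11.56–16.21 at 5 W against 13.58–14.76 and 12.89–14.11 in EN. Oligodendrocyte markers summed to 14.84–15.94 before 5 W, and at that age the roots differed in them, as given below. Of 7 fibroblast and meninges markers 2, 3 and 4 were lower in AN at 1 W, 3 W and 5 W, and none was higher. Their medians were −0.37, −0.61 and −0.71, and 1.26%, 2.82% and 3.24% of all probes were lower. Of 5 endothelial markers 1, 2 and 1 were lower in AN and none higher. Of 4 motor neuron markers 1 was higher in AN at 1 W. The part of these cells in the results below was not tested.

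**Figure D1:**
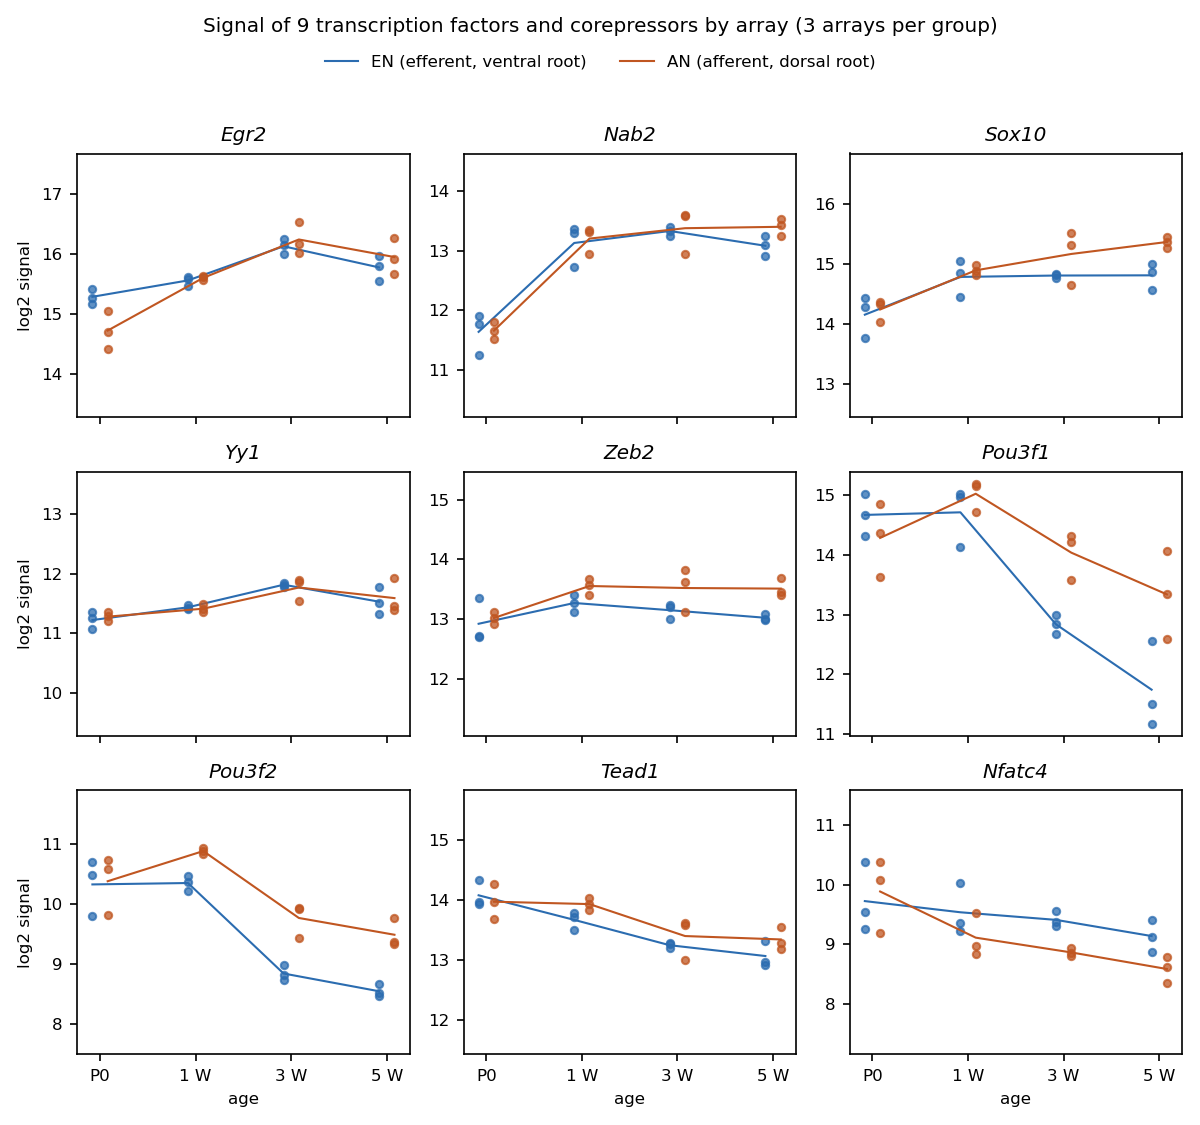
Each panel plots the log2 signal of 1 gene on the 24 arrays against age, with 3 points per nerve fibre and age and lines through the group means; the panels have the same height in log2 units and the ages are evenly spaced, not to scale. *Nab2* rises between P0 and 1 W, *Egr2* is highest at 3 W, and every EN array of *Pou3f1* and *Pou3f2* lies below every AN array at 3 W and at 5 W.

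Over the 9 genes, more differed from P0 at 3 W and 5 W than at 1 W, as among all probes. In EN, 2 rose and none fell at 1 W, where 27.1% of all tested probes were called, 4 rose and 3 fell at 3 W (55.0% of probes called), and 3 rose and 3 fell at 5 W (54.1%). In AN, 4 rose and none fell at 1 W (21.7%), 5 rose and 3 fell at 3 W (51.7%), and 4 rose and 3 fell at 5 W (50.6%). The median of the 9 differences lay between 0.10 and 0.53 in these 6 comparisons, and that of all probes between 0.01 and 0.06. Between 1 W and 3 W, 1 gene rose and 2 fell in EN (27.4%) and in AN (29.9%). Between 3 W and 5 W limma called none, where 2.25% of probes were called in EN and 3.67% in AN; 1 gene in EN and 0 in AN had an unadjusted p below 0.05. With the slide as a block, *Pou3f1* was also lower in EN at 5 W than at 3 W (−1.2, adjusted p = 0.024).

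**Figure D2:**
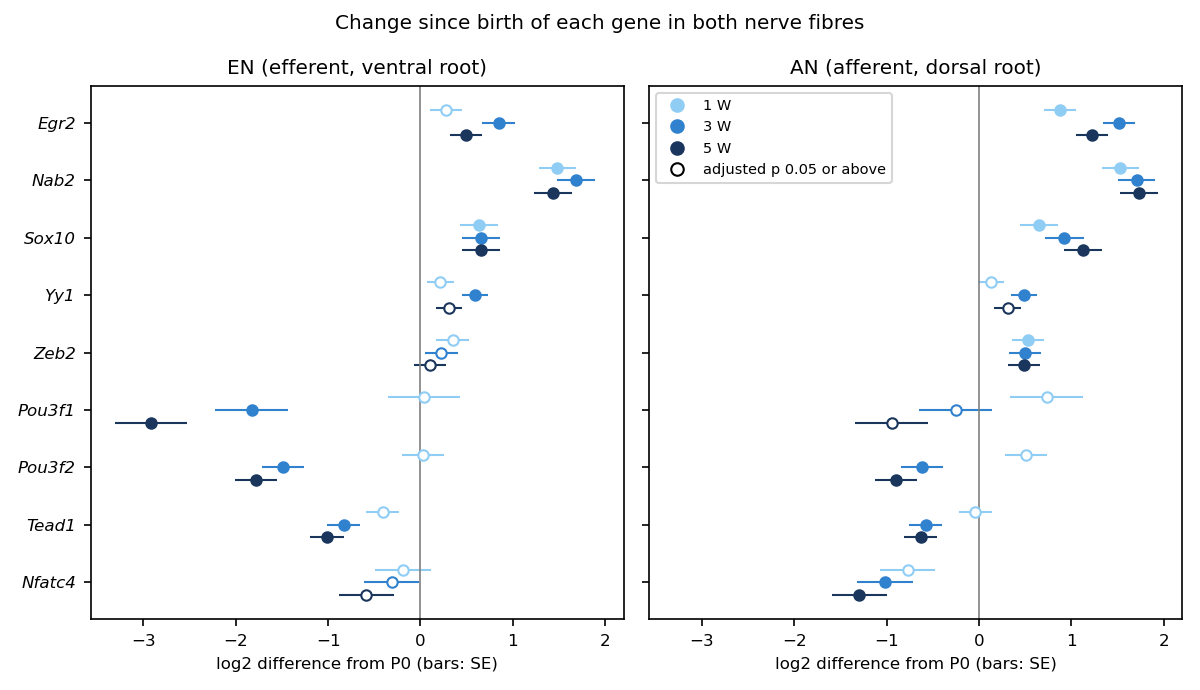
The log2 difference from P0 with its standard error (SE) is plotted for each gene at 1 W, 3 W and 5 W, in EN on the left and AN on the right, with filled points for an adjusted p below 0.05. *Egr2*, *Nab2* and *Sox10* lie to the right of 0 in both nerve fibres, and *Pou3f1* reaches −2.92 in EN against −0.94 in AN at 5 W.

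*Egr2*, the central activator of myelin genes, rose after birth and had its highest group means at 3 W. Its probe (mm9 chr10:67004758-67004817) read 15.17, 15.26 and 15.42 in EN and 14.41, 14.70 and 15.05 in AN at P0. At 3 W it read 16.00, 16.14 and 16.24 in EN and 16.02, 16.16 and 16.54 in AN. Every 3 W array thus lay above every P0 array of both roots. In AN the rise was 0.88 ± 0.18 (SE; adjusted p = 0.00143) at 1 W, 1.52 ± 0.18 (1.13e-06, 2.87-fold) at 3 W and 1.23 ± 0.18 (1.10e-05) at 5 W, and all of these kept an adjusted p below 0.05 in each alternative fit and without each array (highest 0.0323). The 1 W rise was 1.84-fold, under the fold of 2 that the methods' rule for a changed gene asks for.

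In EN the *Egr2* difference was smaller, with 0.28 ± 0.18 at 1 W (0.259), 0.85 ± 0.18 at 3 W (0.000532) and 0.49 ± 0.18 at 5 W (0.0243). The 3 W call was lost with the slide as a block (0.56, 0.0678) and with the scan batch as a block (0.55, 0.0578). The 5 W call was lost with the slide as a block (0.39, 0.0762), with scaling to the 75th percentile (0.49, 0.112) and without any 1 of 4 arrays, with 0.48 (0.0574) without P0 EN replicate 2, 0.43 (0.0822) without P0 EN replicate 3, 0.39 (0.102) without 5 W EN replicate 1 and 0.48 (0.0575) without 5 W EN replicate 3. From 1 W to 3 W *Egr2* rose by 0.57 in EN (0.0222) and 0.64 in AN (0.0101). Both calls were lost with the slide as a block (0.34, 0.332, and 0.42, 0.207) and with scaling to the 75th percentile (0.63, 0.0739, and 0.59, 0.0912). The AN call was lost without 3 W AN replicate 2 (0.49, 0.0643), and the EN call without 1 W EN replicate 1 (0.58, 0.0526), 1 W EN replicate 2 (0.52, 0.0708), 3 W EN replicate 2 (0.56, 0.0614) or 3 W EN replicate 3 (0.51, 0.0788).

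At P0 the *Egr2* signals of the roots did not overlap, and all 3 AN arrays lay below all 3 EN arrays. The difference of −0.56 ± 0.18 was not called (0.220), nor with pairs as a block (0.0567). It was −0.37 on slide 1 and −0.66 on slide 3. From 1 W on the AN minus EN difference was 0.04, 0.11 and 0.18 (0.967, 0.806 and 0.621).

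*Nab2*, which encodes a corepressor that binds Egr2, rose by 1 W and was not called between any later neighbouring ages. Its probe (mm9 chr10:127098009-127098068) read 11.25, 11.78 and 11.90 in EN and 11.53, 11.66 and 11.80 in AN at P0. At 1 W it read 12.72, 13.30 and 13.36 in EN and 12.95, 13.31 and 13.34 in AN. No later array of either root overlapped the P0 arrays. The rise at 1 W was 1.48 ± 0.20 in EN (4.06e-05, 2.80-fold) and 1.53 ± 0.20 in AN (2.81e-05, 2.89-fold). At 3 W it was 1.68 in EN and 1.71 in AN, and at 5 W 1.44 and 1.73. The other *Nab2* probe was above background on 1 of 3 arrays of each root at P0 and on all later arrays, so that its differences from P0 are no check. Every *Nab2* change from P0 was called in each alternative, with a highest adjusted p of 0.0127. *Nab2* was the gene with the largest share of variance between ages, 90.9% of its variance over the 24 arrays, against 78.4% for *Egr2*. No AN against EN difference of *Nab2* was called, and its largest was 0.32 ± 0.20 at 5 W (0.395).

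*Sox10*, which marks the Schwann cell lineage from neural crest onwards, rose from P0 at all 3 later ages in both roots. Its probe (mm9 chr15:78985343-78985402) read 13.76, 14.27 and 14.42 in EN and 14.03, 14.32 and 14.36 in AN at P0. At 5 W it read 14.56, 14.87 and 14.99 in EN and 15.27, 15.37 and 15.45 in AN, so that all AN arrays of that age lay above all EN arrays. In AN the rise was 0.65 ± 0.21 at 1 W (0.0296), 0.93 ± 0.21 at 3 W (0.00107) and 1.13 ± 0.21 at 5 W (0.000161, 2.19-fold). The EN values were 0.63 (0.0295), 0.65 (0.0124) and 0.65 (0.0123).

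In AN *Sox10* kept an adjusted p below 0.05 at 3 W and 5 W in each alternative fit and without each array (highest 0.0450), though the 3 W rise, of 1.90-fold, was under the fold of 2 in the methods' rule, and the others depended on single arrays. Without P0 EN replicate 3 the EN values were 0.44 (0.171), 0.46 (0.0860) and 0.46 (0.0867). The 1 W call in EN was also lost without 1 W EN replicate 1 (0.50, 0.142) or 2 (0.60, 0.0887), and the 5 W call without 5 W EN replicate 2 (0.56, 0.0517). The 1 W call in AN was lost without P0 AN replicate 3 (0.55, 0.134), 1 W AN replicate 1 (0.61, 0.0933) or 1 W AN replicate 2 (0.66, 0.0746). Between 1 W and 3 W *Sox10* differed by 0.27 in AN (0.339), and it rose without 3 W AN replicate 3 (0.53, 0.0434).

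*Pou3f1* (Oct6, Scip), a POU factor of promyelinating Schwann cells, fell most among the 9 genes. Its probe (mm9 chr4:124337692-124337751) read 14.31, 14.66 and 15.02 in EN at P0 and 14.13, 14.97 and 15.02 at 1 W. It then read 12.67, 12.84 and 13.00 at 3 W and 11.18, 11.50 and 12.56 at 5 W. No 3 W or 5 W array of EN overlapped the earlier ones. Against P0 the EN differences were 0.04 ± 0.39 at 1 W (0.954), −1.83 ± 0.39 at 3 W (0.000733) and −2.92 ± 0.39 at 5 W (5.25e-06), and the last is a 7.55-fold fall. Both falls were called in each alternative (highest adjusted p 0.0145).

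In AN *Pou3f1* read 13.63, 14.36 and 14.85 at P0, 14.72, 15.15 and 15.18 at 1 W, 13.58, 14.21 and 14.31 at 3 W, and 12.60, 13.35 and 14.06 at 5 W. The P0 and 3 W arrays overlapped, as did the P0 and 5 W arrays. The differences from P0 were 0.73 ± 0.39 (0.203), −0.25 ± 0.39 (0.618) and −0.94 ± 0.39 (0.0532), and none was called. That at 5 W was called with the slide as a block (−1.13, 0.00205) and without P0 AN replicate 2 (−1.27, 0.0186), 5 W AN replicate 1 (−1.30, 0.0140), 1 W EN replicate 3 (−0.94, 0.0469), 5 W EN replicate 1 (−0.94, 0.0341) or 5 W EN replicate 2 (−0.94, 0.0471).

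*Pou3f2* (Brn2), its relative with an overlapping role in Schwann cells, took a like course at other signal levels of its own probe (mm9 chr4:22409987-22410046). In EN it read 9.80, 10.48 and 10.70 at P0, 10.21, 10.37 and 10.47 at 1 W, 8.73, 8.81 and 8.98 at 3 W and 8.46, 8.51 and 8.66 at 5 W. In AN it read 9.82, 10.59 and 10.73, then 10.84, 10.88 and 10.93, then 9.44, 9.92 and 9.94, then 9.34, 9.36 and 9.76. At 1 W, 3 W and 5 W every AN array lay above every EN array. In EN the differences from P0 were −1.49 ± 0.23 at 3 W (2.60e-05) and −1.79 ± 0.23 at 5 W (2.70e-06), and both were called in each alternative (highest adjusted p 0.00682).

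In AN *Pou3f2* differed from P0 by −0.61 ± 0.23 at 3 W (0.0303) and −0.89 ± 0.23 at 5 W (0.00299). The 3 W call in AN was lost with the slide as a block (−0.49, 0.257) and without P0 AN replicate 1 (−0.44, 0.149), P0 AN replicate 2 (−0.51, 0.109) or 3 W AN replicate 3 (−0.45, 0.131). From 1 W to 3 W its differences were −1.51 in EN (9.19e-05) and −1.12 in AN (0.00126). Over the same ages *Pou3f1* fell by 1.87 in EN (0.00184), and its AN difference of −0.98 was not called (0.0663), though it was without 5 W AN replicate 1 (0.0499), 5 W AN replicate 2 (0.0473) or 5 W EN replicate 1 (0.0443). *Pou3f1* and *Pou3f2* had the closest group means of all pairs among the 9 genes (r = 0.970 over 8 groups, as a description).

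*Yy1*, a zinc finger factor that activates *Egr2*, was highest at 3 W on its brightest probe (mm9 chr12:110054658-110054716), but its probes disagreed. The probe read 11.07, 11.25 and 11.35 in EN and 11.20, 11.29 and 11.35 in AN at P0. At 3 W it read 11.78, 11.81 and 11.85 in EN and 11.54, 11.86 and 11.90 in AN, above all P0 arrays. The rise was 0.59 ± 0.14 in EN (0.00178) and 0.48 ± 0.14 in AN (0.00795). With the slide as a block it was 0.14 (0.446) and 0.04 (0.869), so that both calls were lost. Of the other 2 probes, 1 was lower than at P0 at 3 W in both roots (−0.49 in EN and −0.65 in AN), and the other gave 0.16 and 0.31 and was not called. At 5 W the brightest probe differed from P0 by 0.31 in each root (0.0726 and 0.0762). That difference was called in EN without 5 W AN replicate 3 (0.31, 0.0369) or 5 W EN replicate 2 (0.42, 0.0292), and in AN without 5 W AN replicate 2 (0.41, 0.0334). Between 1 W and 3 W *Yy1* differed by 0.38 in EN (0.0556) and 0.35 in AN (0.0670), and neither was called. Both were called without 5 W AN replicate 3 (0.0256 and 0.0325) or 3 W AN replicate 3 (0.0415 and 0.0237), and that in EN also without 5 W AN replicate 2 (0.0465), 5 W EN replicate 2 (0.0476) or 5 W EN replicate 3 (0.0415).

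*Zeb2*, which represses inhibitors of differentiation, rose in AN. Its probe (mm9 chr2:44844068-44844127) read there 12.92, 13.02 and 13.13 at P0, 13.41, 13.58 and 13.68 at 1 W, 13.13, 13.62 and 13.82 at 3 W and 13.40, 13.45 and 13.69 at 5 W. The 1 W and 5 W arrays did not overlap those of P0. The rises were 0.53 ± 0.18 (0.0360), 0.50 ± 0.18 (0.0237) and 0.49 ± 0.18 (0.0267). In EN the differences were 0.35, 0.23 and 0.10, and none was called (0.153, 0.286 and 0.646). Whether AN and EN changed differently was not shown, since the change of the AN minus EN difference was 0.18, 0.27 and 0.39 (1.00, 0.906 and 0.661).

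The *Zeb2* calls in AN were lost without P0 AN replicate 1 (0.53, 0.0746; 0.50, 0.0509; 0.49, 0.0554) or P0 AN replicate 3 (0.48, 0.128; 0.45, 0.0787; 0.44, 0.0870). They were also lost at 1 W without 1 W AN replicate 1 (0.52, 0.0911) or 3 (0.47, 0.111), at 3 W without 3 W AN replicate 1 (0.35, 0.134) or 2 (0.45, 0.0752), and at 5 W without 5 W AN replicate 3 (0.40, 0.105). In EN the 1 W and 3 W differences were called without P0 EN replicate 2 (0.56, 0.0215, and 0.44, 0.0354). Of the 6 other *Zeb2* probes, 2 rose in AN at 1 W, 3 at 3 W and 3 at 5 W, and in EN 1, 2 and 1 rose, while none fell, though 2 of these probes were above background on 2 of 3 arrays of a group at P0. With the slide as a block the AN difference was 0.35 (0.317) at 3 W and 0.46 (0.0622) at 5 W. Macrophage markers, given above, rose over the same ages, and their part was not tested.

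*Tead1*, through which the Hippo pathway effectors bind DNA, fell on its brightest probe (mm9 chr7:120049844-120049903). It read 13.93, 13.97 and 14.34 in EN and 13.68, 13.97 and 14.27 in AN at P0, and 12.92, 12.97 and 13.31 in EN and 13.19, 13.29 and 13.55 in AN at 5 W. The 5 W and P0 arrays of a root did not overlap. In EN the differences were −0.83 ± 0.18 at 3 W (0.000744) and −1.01 ± 0.18 at 5 W (0.000104). In AN they were −0.58 at 3 W (0.0116) and −0.63 at 5 W (0.00640), and *Tead1* fell by 0.53 from 1 W to 3 W (0.0305). Scaling to the 75th percentile ended the AN calls at 3 W (−0.36, 0.173) and 5 W (−0.44, 0.103).

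Neither of the 2 other *Tead1* probes was called in any comparison with P0, and they gave −0.17 to 0.13 in EN and −0.18 to 0.32 in AN at 3 W. Without P0 AN replicate 3 the AN difference at 3 W was −0.43 (0.0760), and without 3 W AN replicate 3 it was −0.38 (0.0777). Without that same array the fall from 1 W to 3 W in AN was −0.34 (0.147). It was also lost without 1 W AN replicate 2 (−0.53, 0.0690) or 3 (−0.49, 0.0957). In EN the difference over these ages was −0.42 (0.0868), and it was called without 3 W AN replicate 3 (−0.42, 0.0485).

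*Nfatc4*, the calcineurin-dependent partner of Sox10, fell in AN. Its probe (mm9 chr14:56452542-56452601) read 9.26, 9.54 and 10.37 in EN and 9.19, 10.08 and 10.38 in AN at P0. At 5 W it read 8.88, 9.13 and 9.41 in EN and 8.36, 8.62 and 8.79 in AN. Arrays of P0 and 5 W overlapped in EN and not in AN. In AN the differences were −0.77 ± 0.30 at 1 W (0.0757), −1.01 ± 0.30 at 3 W (0.00861) and −1.29 ± 0.30 at 5 W (0.00142), and the last was called in each alternative. Those in EN were −0.19, −0.31 and −0.59 (0.685, 0.391 and 0.107).

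With the slide as a block *Nfatc4* was lower than at P0 in EN at 3 W (−0.69, 0.0403) and 5 W (−0.73, 0.00430) and in AN at 1 W (−0.61, 0.0150). The 3 W call in AN was lost without P0 AN replicate 2 (−0.77, 0.0558). The 1 W difference in AN was called without P0 AN replicate 1 (−1.12, 0.0121), P0 EN replicate 2 (−0.77, 0.0481) or 1 W AN replicate 3 (−0.97, 0.0458), and the 5 W difference in EN without P0 EN replicate 1 (−0.82, 0.0427). The other *Nfatc4* probe fell in AN at 3 W (−1.55) and 5 W (−1.96).

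The roots were compared at each age. At P0 none of the 9 genes was called by limma (0.739% of all probes were; 1 gene had an unadjusted p below 0.05), and none with pairs as a block (3.85% of probes). At 1 W none was called (4.00%; 1 gene below 0.05 unadjusted), and 2 with pairs (10.8%). At 3 W 1 gene was higher in AN (5.89%), and with pairs 3 were higher and 1 was lower (21.1%). At 5 W 2 genes were higher in AN (6.76%), and with pairs 4 were higher and 1 was lower (23.5%). The median of the 9 AN minus EN differences went from 0.05 at P0 to 0.32 at 5 W, and that of all probes lay between −0.06 and 0.01.

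**Figure D3:**
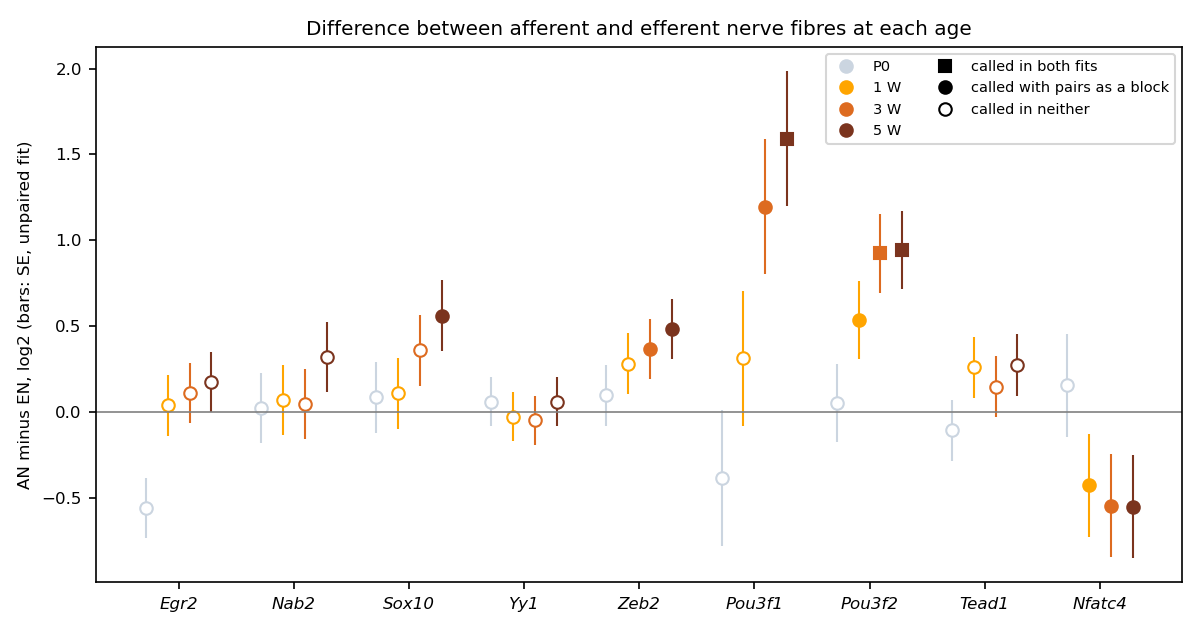
The AN minus EN difference in log2 units is plotted for the 9 genes at the 4 ages, with bars for the SE of the fit without pairs, squares for differences called in both fits, filled circles for those called only with pairs as a block and open circles for the rest. *Pou3f1* and *Pou3f2* lie highest at 3 W and 5 W, *Nfatc4* lies below 0 from 1 W on, and the 9 genes lie between −0.56 and 0.16 at P0.

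Among the 9 genes, the POU factors were those that differed between the roots without pairs. *Pou3f1* was 3.01-fold higher in AN at 5 W (1.59 ± 0.39, 0.0185), and read 1.2 ± 0.39 above EN at 3 W (0.0825; with pairs 0.00265). *Pou3f2* was higher in AN by 0.92 ± 0.23 at 3 W (0.0207) and 0.95 ± 0.23 at 5 W (0.0156), and with pairs also at 1 W (0.54, 0.0102). Within each slide the 5 W difference of *Pou3f1* was 1.5, 1.42 and 1.85, and that of *Pou3f2* 1.1, 0.91 and 0.83. All 3 pairs of arrays thus showed the direction in both genes.

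Without pairs the *Pou3f1* call at 5 W was lost when an array was left out, with 1.23 (0.0882) without 5 W AN replicate 1, 1.31 (0.0857) without 5 W EN replicate 2 and 1.47 (0.0692) without 5 W EN replicate 3. For *Pou3f2* the 3 W call was lost without 3 W AN replicate 1 (0.85, 0.0623) or 2 (0.84, 0.0644). It was also lost without 3 W EN replicate 1 (0.91, 0.0729) or 3 (0.87, 0.0877). Its 5 W call was lost without 5 W AN replicate 1 (0.81, 0.0672) or 5 W EN replicate 2 (0.90, 0.0538). With limma fitted to the arrays of the compared groups alone, *Pou3f1* at 5 W (0.266) and *Pou3f2* at 3 W (0.05) and 5 W (0.127) were not called. Sensory neuron markers differed between these arrays: at 5 W they summed to 14.33, 13.26 and 10.37 in AN replicates 1, 2 and 3 and to 10.67–11.31 in EN. In replicate 3 at 5 W *Pou3f1* was 1.85 and *Pou3f2* 0.83 higher in AN. This is 1 pair of arrays, and the part of sensory neurons or of Schwann cell number in the POU differences was not tested.

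In the limma fit without pairs no other of the 9 genes was called between the roots. The factor differences that follow were called with pairs. *Sox10* was higher in AN at 5 W (0.56, 0.0299; 0.119 without pairs). Oligodendrocytes, the myelinating cells of the central nervous system, express *Sox10* too. At that age 5 of their 12 markers were higher in AN and none lower (median 1.5), where 3.52% of all probes were higher. With pairs 7 of these markers were higher and 0 lower, where 23.5% of all probes were called. The summed signal of these markers was 15.39–16.28 in AN and 13.47–15.58 in EN at 5 W, and their part was not tested. *Zeb2* was higher in AN at 3 W (0.37, 0.0461; 0.255 without pairs) and 5 W (0.48, 0.0155; 0.113). *Nfatc4* was lower in AN at 1 W (−0.43, 0.0406; 0.635), 3 W (−0.54, 0.00978; 0.345) and 5 W (−0.55, 0.00829; 0.316). Some differences were also called in other fits. Without 3 W AN replicate 3 the *Sox10* difference at 5 W was called without pairs as well (0.56, 0.0493). With the replicate number as a block it was called too (0.56, 0.0229). With the slide as a block *Nfatc4* was lower in AN at 3 W (−0.54, 0.043) and 5 W (−0.55, 0.0389). With array quality weights *Sox10* (0.56, 0.00351) and *Zeb2* (0.54, 0.0031) were higher in AN at 3 W.

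Whether the roots changed differently since birth was tested by the change of the AN minus EN difference from P0. None of the 9 genes was called at 1 W (0.0632% of probes were), 3 W (0.615%) or 5 W (1.14%) by limma, with 1, 3 and 3 genes at an unadjusted p below 0.05. With pairs as a block, 0.736%, 4.12% and 6.77% of probes were called, and among the 9 genes none at 1 W and 3 each at 3 W and 5 W, which are *Pou3f1*, *Pou3f2* and *Nfatc4*. For *Pou3f1* the change was 1.58 at 3 W (0.294; with pairs 0.0136) and 1.97 at 5 W (0.106; with pairs 0.00430), and without 5 W EN replicate 1 it was 2.38 at 5 W and called without pairs (0.0436). For *Pou3f2* it was 0.87 (0.332; with pairs 0.0114) and 0.89 (0.249; with pairs 0.00769). For *Nfatc4* it was −0.70 (0.717; with pairs 0.0414) and −0.71 (0.623; with pairs 0.0304). For *Egr2* it was 0.60, 0.67 and 0.74 (0.554, 0.332 and 0.199), and was not called with pairs either (0.170, 0.0870 and 0.0522).

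Genes with the course most like that of 3 of the factors were named by Pearson's r over the 8 group means among 9768 genes whose means spanned at least 1 log2 unit. This is a description over groups that share arrays, and the likeness was ranked among many genes. Closest to *Egr2* were *Map1lc3a* (r = 0.985), *1700012D01Rik*, *5830454E08Rik*, *Swt1* and *Wwc2* (0.978). Closest to *Pou3f1* were *Tmprss5* (0.987), *Sh3gl3*, *Mettl24*, *Slc7a14* and *Susd5* (0.977). Closest to *Sox10* were *Trpv3* (0.988), *Ctdsp1*, *Sirt1*, *Kcnk5* and *Kbtbd8* (0.980).

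Myelin genes that Egr2 and Sox10 are known to activate rose in both roots, most of them already at 1 W. Of 18 such genes 15, 13 and 14 rose in EN at 1 W, 3 W and 5 W, with a median difference of 1.15, 1.32 and 1.31, and 16, 14 and 16 rose in AN, with a median of 1.73, 2.07 and 2.17. Of all tested probes 15.5%, 29.0% and 28.2% rose in EN and 12.3%, 26.8% and 26.4% in AN. In the same comparisons the median of all probes was 0.01 to 0.06. *Pmp22*, which encodes a compact myelin protein, rose by 0.84 in AN at 1 W (at 0.26 in EN it was not called). *Mal*, which encodes a raft protein of myelin membranes, rose by 1.19 in EN and 1.38 in AN at 1 W. *Prx* (periaxin) rose by 0.53 and 0.82 at 1 W. *Drp2*, a periaxin partner, rose most, by 4.70 in EN and 6.32 in AN at 5 W. One gene fell, *Gjc3* in EN at 5 W (−1.71).

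At P0 8 of the 18 myelin genes were lower in AN than in EN, where 0.516% of all probes were lower. None of the 18 was higher, and their median was −0.94. Among the lower genes were *Drp2* (−1.66) and *Ncmap* (−1.26). *Egr2* also read lower on all AN arrays at P0, but its difference was not called, and a link to these genes was not tested. With pairs as a block 15 of the 18 were lower in AN at P0, where 3.85% of all probes were called. By 5 W the median of the 18 was 0.02, with 2 genes higher in AN and 1 lower (3.52% and 3.24% of all probes). With pairs these were 3 and 2, where 23.5% of all probes were called. The change of the difference from P0 was called for 4 of the 18 at 5 W, all upward, where 0.689% of all probes changed upward. Among them were *Ncmap* (1.57), *Cnp* (1.27) and *Fa2h* (1.2), and the median over the list was 0.96. With pairs it was called for 11, again all upward, where 6.77% of all probes were called.

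**Figure D4:**
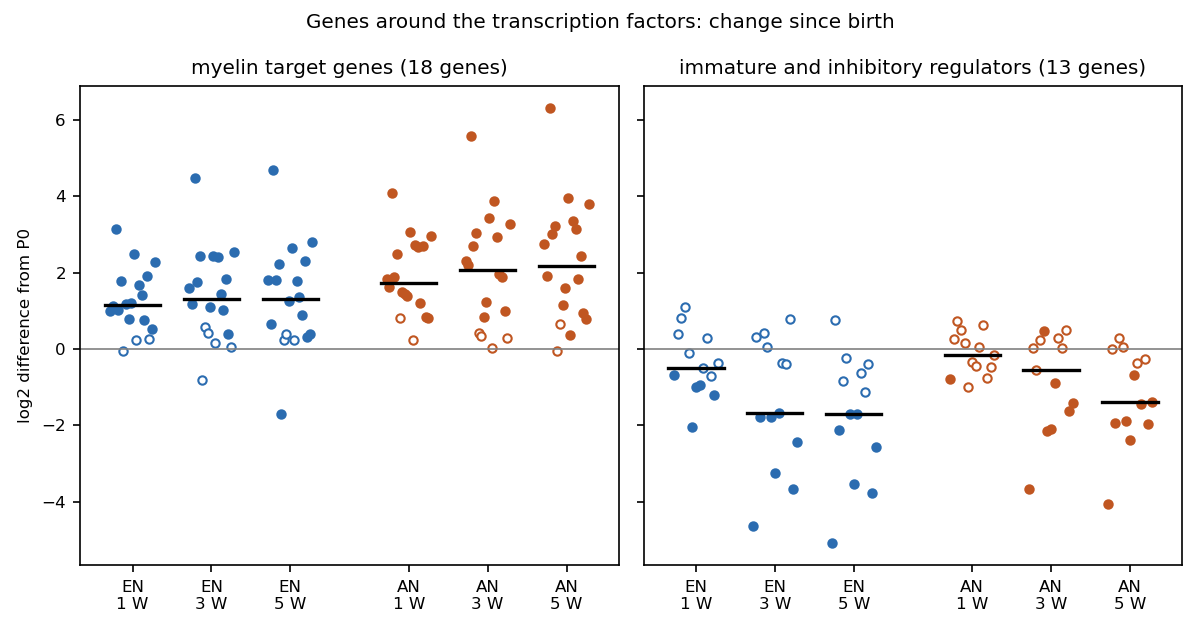
The log2 difference from P0 is plotted for each of the 18 myelin target genes (left) and 13 immature and inhibitory regulators (right) in EN and AN at 1 W, 3 W and 5 W, with filled points for an adjusted p below 0.05 and a bar at the median. The left medians go from 1.15 to 1.31 (EN) and 1.73 to 2.17 (AN), and the right medians reach −1.70 in EN and −1.38 in AN at 5 W.

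Regulators of the immature state fell in part in both roots. Of 13 such genes 5, 7 and 7 fell in EN at 1 W, 3 W and 5 W, and 1, 6 and 8 in AN, where 1 rose at 3 W (*Hey1*, 0.46). Of all tested probes 11.6%, 26.0% and 26.0% fell in EN and 9.35%, 24.9% and 24.2% in AN. *Ednrb*, an endothelin receptor that Zeb2 represses, was at −5.09 in EN and −4.06 in AN at 5 W, both called. *Sox2*, which holds Schwann cells immature, was at −2.57 and −1.38, and *Id2*, an inhibitor of helix-loop-helix factors, at −3.53 and −2.4, all called. *Jun* and *Ngfr*, the genes of highest mean signal beside *Id2* and *Egr1*, did not pass the test in EN at any age (−0.63 and −1.13 at 5 W), while *Ngfr* fell by 1.43 in AN at 5 W.

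Some of these genes were higher in AN than in EN from 1 W on. None was called at P0, while 4, 6 and 5 were higher at 1 W, 3 W and 5 W. Of all probes 0.222% were higher in AN at P0, and 2.74%, 3.07% and 3.52% at the later ages. With pairs as a block 1 gene was higher at P0 and 6, 8 and 6 at the later ages. With pairs 3.85%, 10.8%, 21.1% and 23.5% of all probes were called at the 4 ages, in either direction. The medians of the 13 genes at the 4 ages were 0.21, 0.63, 0.78 and 0.96. *Pax3*, an early crest factor, was 3.02 higher in AN at 3 W and 2.79 at 5 W, and *Sox2* 1.44 and 1.58. The change of the difference from P0 was called for 4 genes at 5 W (*Pax3* 1.81, *Sox2* 1.19, *Id2* 1.13 and *Ednrb* 1.04), where 0.689% of all probes changed upward. With pairs it was called for 4 as well, where 6.77% of all probes were called. Schwann cell markers were also higher in AN for 5 of 8 genes at 3 W and at 5 W (1 lower at each), and with pairs for 5 and 6.

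Partners of the 9 factors moved in part. Of the 15 NuRD and BAF subunits, the remodelling complexes used by Zeb2 and Sox10, 12 fell in EN at 3 W and 5 W and 13 and 11 in AN, with medians of −0.57 to −0.62 and none higher, where 24.2% to 26.0% of all tested probes fell. *Smarca4* (Brg1), the motor of BAF, fell at 5 W (−0.62 in EN and −0.59 in AN), as did *Hdac1* (−0.70 and −0.82), whereas *Rbbp4* and *Mbd3* were at −0.19 and −0.25 in EN at 5 W and not called. Cycling cell markers fell over the same ages, and their part was not tested. Of 6 calcineurin genes, the upstream arm of Nfatc4, 2 rose at 5 W in each root, which are *Rcan1* (1.33 and 1.03) and *Rcan2* (2.02 and 1.44), feedback regulators of calcineurin, while the catalytic subunit gene *Ppp3ca* was at −0.26 and 0.10 and not called. None of the 6 fell in either root. A share of 2 in 6 lies near the 28.2% and 26.4% of all probes that rose in EN and AN at that age.

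Of 9 Hippo pathway genes 6 rose in EN and 4 in AN at 5 W and none fell, where 28.2% and 26.4% of all probes rose and 26.0% and 24.2% fell. *Yap1*, a coactivator bound by Tead1, rose by 0.57 and 0.47, while *Wwtr1* (Taz) was at −0.24 and −0.21 and not called. *Ccn2*, a known target of the complex, fell at 1 W (−1.61 and −2.0), and at 5 W it had risen above P0 in EN (0.84). Among the relatives of *Tead1*, *Tead2* fell at 5 W (−1.92 in EN and −2.33 in AN), and *Tead3* (1.15 and 1.69) and *Tead4* (1.78 and 2.88) rose. *Sox8*, which like Sox10 is a SoxE factor, rose by 1.04 and 1.52, and *Sox9* by 1.76 and 2.07. In all, 6 of 12 measured relatives rose and 2 fell in EN at 5 W, and 4 rose and 3 fell in AN, and with 54.1% and 50.6% of all probes called these shares lie near the background.

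Of 10 genes for inducing signals 1 rose and 2 fell in EN at 5 W, and 2 rose and 2 fell in AN, which is no larger a share than among all probes (54.1% and 50.6% called). *Mapk3* (Erk1) rose by 2.31 and 2.0 and *Akt1* fell (−0.36 and −0.41). *Erbb3*, the neuregulin receptor subunit of Schwann cells, fell at 5 W (−1.46 in EN and −0.32 in AN), and was higher in AN by 1.29 at that age. The change of its AN minus EN difference from P0 was called (1.14), also with pairs as a block (0.00293). *Lgi4*, a secreted factor that binds Adam22, rose by 1.08 in AN and was 0.25 in EN at 5 W, where it was not called. *Adgrg6* was at 0.19 and 0.01 and was not called at any age.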

How the data were processed

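Total RNA of 24 root samples (8 groups of 3, taken from the sample titles) was measured on 1-colour Agilent mouse arrays, read with Feature Extraction 10.7.1.1 per the submitters' processing notes. The authors deposited each spot's background-subtracted intensity. They also deposited a table of log2 intensity, which the study's methods describe as quantile normalized. That table was used; its columns correlated with their own array's log2 intensity at r = 0.9955 to 0.9999. Of 56605 gene probes, 36409 (64.32%) passed the scanner's background flag on the 3 arrays of some group and were tested. Between 55.1% and 71.7% of spots of an array were above background, none was saturated, and the number of arrays limits the precision. The 8 group means were fitted with limma 3.58.1 (R 4.3.3) and eBayes, with 16 residual degrees of freedom, 17 contrasts and Benjamini-Hochberg adjustment. Since fibres were pooled, p values measure the spread between these 3 pools, which may be partly technical.

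Gene names came from the scanner files. No accession of the 21 probes named another gene. Probe positions are on mm9, promoters and names from RefSeq (GRCm38.p6), and *Sox10*, *Pou3f1* and *Tead1* are named without a promoter. The AN and EN arrays of an age were paired by their numbers, and these pairs shared a slide and varied together, least at 3 W. For 3 W and for P0 replicates 2 and 3 the slide did not mark the partners. The members, lists and tests were chosen with earlier results of these data known. Named were all members by their brightest probe, 5 genes of the most like course for 3 of them, and from each list up to 4 genes of highest mean signal with any others a sentence needs. Some genes of the lists are counted and not reported singly here. The limma script was tested on simulated data. Figures were drawn with Python 3.11.15, numpy 2.4.6, pandas 2.3.3 and matplotlib 3.10.9. Alternatives were another normalization or background correction, other filters, probes, blocks, weights and call rules, and each array or replicate number left out.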

Additional observations from a re-analysis of the deposited data

Results flagged for a closer look

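For 3 of the 9 genes the change since birth differed between the nerve fibres in the fit with pairs as a block, and not in the fit without them. At 3 W the AN minus EN difference had changed from P0 by 1.58 for *Pou3f1* (adjusted p = 0.0136 with pairs, limma), by 0.87 for *Pou3f2* (0.0114) and by −0.70 for *Nfatc4* (0.0414). At 5 W it had changed by 1.97 (0.00430), 0.89 (0.00769) and −0.71 (0.0304). Without pairs the adjusted p values were 0.294, 0.332 and 0.717 at 3 W and 0.106, 0.249 and 0.623 at 5 W. With the slide as a block *Pou3f1* was called at both ages (0.0253 and 0.00489). The pairs were chosen as a block after the arrays' slides were known, and at 3 W only the array numbers mark the partners.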

How the results depend on the processing

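Of 27 differences from P0, 15 were called in EN (11 to 16 with an array or replicate number left out) and 19 in AN (10 to 20). Of 36 between later stages 6 were called (3 to 9), of 36 between AN and EN 3 (0 to 4), and of 27 changes of that difference 0 (0 to 1). Calls by fold change above 2 and p below 0.05, not adjusted, numbered 8, 8 and, for the changes of the AN minus EN difference, 2. Scaling to the 75th percentile gave 3 between later stages. With array quality weights there were 12 between later stages, 6 between AN and EN and 3 changes of that difference. AN against EN gave 5 with the replicate block, 6 with the slide as a block, 11 with the replicate block within each stage (the AN and EN pairs, chosen after seeing the data) and 1 from the arrays compared alone. The changes of the difference gave 1 with the replicate block, 2 with the slide, 2 with the scan batch and 6 with the pairs. The counts of the other alternatives stayed within 1.5 times, and in the alternatives no called value of a single gene turned its sign. The dimmest *Yy1* probe, used there only in the mean of all probes, was lower at 3 W (−0.49 in EN and −0.65 in AN). The brightest *Yy1* probe rose in these comparisons. The cause of the changes in counts was not tested. Replicate numbers did not pair ages of a root (r −0.347 to 0.378, 15 of 36 above 0.1), so the replicate block over ages shares only a number. Scaling moved the median of all probes by less than 0.1.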
